A study of Mus musculus with 2 samples.

Results

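Mural cells, the pericytes and smooth muscle cells that wrap small blood vessels, were followed in single-nucleus RNA sequencing of 2 calf muscles of C57BL/6 mice aged 12 weeks. Nuclei were counted as mural when they held at least 1 unique molecular identifier (UMI, a counted RNA molecule) of 3 or more of Rgs5, Notch3, Pdgfrb, Kcnj8, Abcc9 and Myh11. Members with 2 or more Myh11 UMIs formed the smooth muscle side, and the other members formed the pericyte side. The rule found 428 of 16530 nuclei, of which 159 of 7374 came from gastrocnemius and 269 of 9156 from plantaris. Gastrocnemius, the large superficial calf muscle, and plantaris, the slender muscle beneath it, were each read as 1 library of nuclei stained with propidium iodide, sorted and loaded on a 10x Chromium chip. The labels name no genotype beyond the strain and no treatment, and the sources used here do not give the number or sex of the mice. All ratios and differences between groups are in log2 units. The muscle, the animals and the library therefore cannot be told apart, nuclei are not replicates, and no test between the muscles was possible. The members held 419867 UMIs in gastrocnemius and 1367069 in plantaris. Of 17 cell barcodes that the libraries share, 0 were in members, and a doublet caller that marked only 3 of all nuclei has not worked, so doublets remain. All intervals in parentheses are at 95% and cover counting error only.

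Pericytes sit within the basement membrane of capillaries, where they are recruited through the receptor PDGFRB (Pdgfrb), while smooth muscle cells form the contractile coat of arterioles and arteries. Notch signalling through Notch3 maintains both. Contraction follows calcium entry through voltage-gated and receptor-operated channels and is opposed by nitric oxide, which acts through soluble guanylate cyclase, cGMP and cGMP-dependent protein kinase. ATP-sensitive potassium channels, built here from Kcnj8 (the pore Kir6.1) and Abcc9 (the regulatory subunit SUR2), hyperpolarise mural cells and relax vessels.

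Mural nuclei made up 2.16% (1.84 to 2.51) of gastrocnemius nuclei and 2.94% (2.60 to 3.30) of plantaris nuclei. The smooth muscle side held 50 of the 159 members in gastrocnemius, or 31.4% (24.3 to 39.3), and 108 of the 269 in plantaris, or 40.1% (34.2 to 46.3). The median member held 1614 UMIs in gastrocnemius and 2619 in plantaris, against 2260 and 2714 over all nuclei of each library. When every nucleus with 1000 or more UMIs was thinned to 1000 UMIs, mural nuclei were 1.22% (0.967 to 1.53) of gastrocnemius and 1.32% (1.09 to 1.60) of plantaris nuclei, so the intervals of the muscles overlapped at equal depth. Thinning left out 36 of 159 members in gastrocnemius and 35 of 269 in plantaris. The smooth muscle side was then 20.8% (12.4 to 31.5) and 27.1% (19.0 to 36.6) of members.

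Many members also carried RNA of other cell types. Fixed marker lists of 7 other types, each met with 3 or more of 6 markers, were met by 18.9% (13.1 to 25.8) of gastrocnemius members and 34.6% (28.9 to 40.6) of plantaris members. Plantaris members were the deeper ones, and a rule of detection can be met more easily at depth. The part of depth in this difference was not tested. Mesenchymal progenitors (Pdgfra, Dcn, Col1a1, Col3a1, Abca8a and Lum) were the type met most often, by 14.5% (9.40 to 20.9) and 30.1% (24.7 to 36.0). The summed level of these 6 markers in all members was 1124 and 1293 counts per 1000000 of the members' UMIs (CPM), against 637 and 625 in all other nuclei. Summed levels of the other lists did not all go one way between the muscles: muscle stem cell, macrophage, Schwann cell and adipocyte markers were at 212, 326, 229 and 42.9 CPM in gastrocnemius members and at 191, 266, 160.2 and 0.731 in plantaris members, and tenocyte markers at 28.6 and 112. All 6 endothelial markers together were at 42.9 and 68.0 CPM, against 25.5 and 30.5 in other nuclei, with Cdh5 and Ptprb at 0 UMIs in gastrocnemius, and the endothelial rule was met by 0 and 3 members. A share of UMIs from 16 myonuclear genes above 4.92%, the 95th percentile in nuclei meeting the endothelial rule, marked 20.8% (14.7 to 27.9) and 24.2% (19.2 to 29.7) of members. The members that met no other rule and had no high load numbered 105 in gastrocnemius and 129 in plantaris, 1.42% (1.17 to 1.72) and 1.41% (1.18 to 1.67) of all nuclei, and are called single-rule members in what follows, a set chosen after the data were seen. The name says which rules they met and not that they lack other RNA: their endothelial markers summed to 106 and 124 CPM, above the level in all members, and their mesenchymal markers to 485 and 533. Their median depth was 1246 and 1500 UMIs. They supplied 35.8% of all members' UMIs in gastrocnemius and 16.5% in plantaris. Levels are therefore given for the single-rule members beside those of all members.

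**Figure D1:**
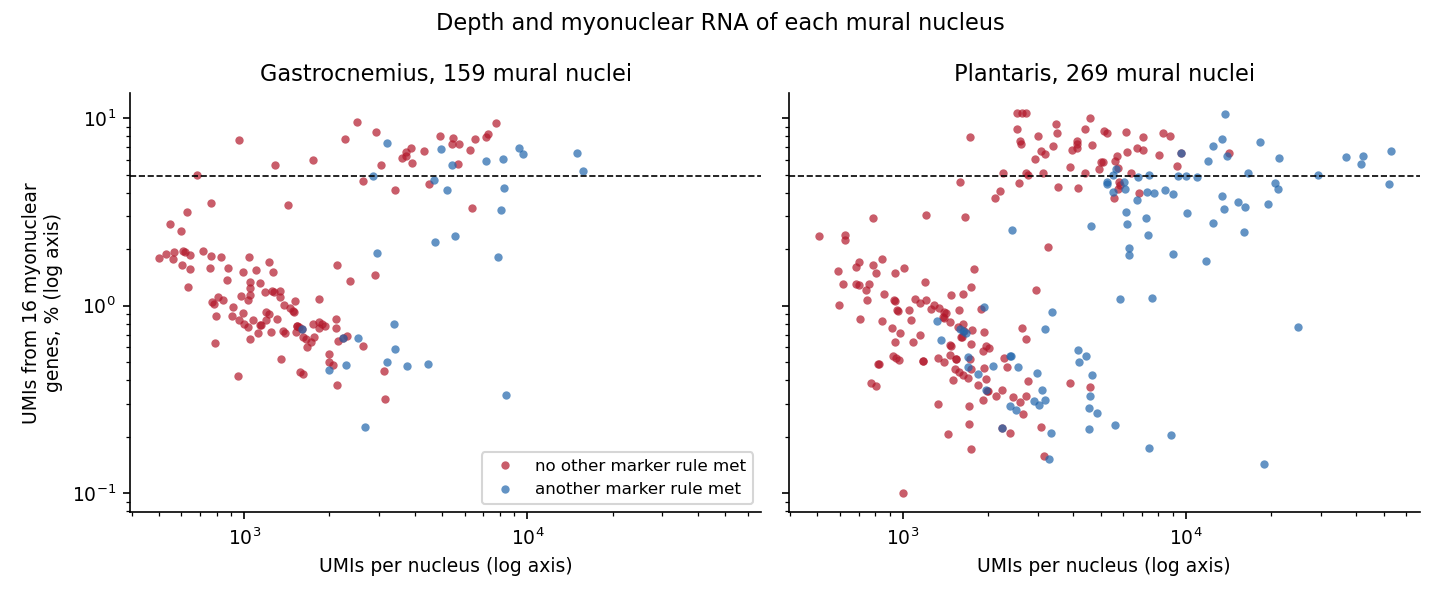
Each point is 1 mural nucleus, with its UMIs on the x axis and the percentage of them from 16 myonuclear genes on the y axis, both logarithmic, for the 159 gastrocnemius and 269 plantaris members. Blue nuclei also met the marker rule of another cell type, and the dashed line is the limit for a high myonuclear load, which 20.8% and 24.2% of members exceeded.

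The 6 rule genes chose the members, so their levels are a description. Rgs5, a regulator of G-protein signalling and a pericyte marker, was at 1623 CPM in single-rule gastrocnemius members and 1374 in single-rule plantaris members, against 4.99 and 3.12 in all other nuclei. Notch3 was at 1536 and 1236 CPM, and Pdgfrb at 964 and 742. Over all members the same 3 genes were at 786, 862 and 522 CPM in gastrocnemius and at 383, 411 and 267 in plantaris, lower in both libraries than in the single-rule members. Rgs5 and Notch3 had a UMI in 1.29% and 4.25% of gastrocnemius nuclei that met the mesenchymal rule and in 0.509% and 4.41% in plantaris. Pdgfrb had one more often, in 11.8% (9.65 to 14.3) and 15.8% (13.7 to 18.0) of these nuclei, against 0.790% and 0.993% of myonuclei. Myonuclei were the deeper of these groups, at a median of 2786 and 3338 UMIs against 1573 and 2107 for mesenchymal nuclei.

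The 2 subunits of the vascular ATP-sensitive potassium channel differed in how far they marked mural nuclei. Abcc9 had a UMI in 400 of the 428 members, but also in 61.1% (59.7 to 62.4) and 67.4% (66.2 to 68.6) of myonuclei, where SUR2 is a known subunit of the muscle fibre's own channel. Its level in myonuclei was 394 and 393 CPM, against 2580.2 and 2165 in single-rule members. Kcnj8 had a UMI in only 15.1% (9.92 to 21.6) and 19.0% (14.5 to 24.2) of members, yet in 5 of 5315 and 2 of 5839 myonuclei and in none of 777 and 1179 mesenchymal nuclei. A count of 0 there, at a floor of 3 counts, allows shares of nuclei with a Kcnj8 UMI of up to 0.386% and 0.254%, and sets no limit on nuclei that express it. The other pore and regulatory genes, Kcnj11 (Kir6.2) and Abcc8 (SUR1), gave 0 and 1 of the 419867 UMIs of all gastrocnemius members. Over all plantaris members they gave 6 and 4 of 1367069. Kcnj11 was at 8.60 and 11.3 CPM in myonuclei, and whether members lay below these levels was not tested. At the edge of the rule, 3 markers were held by 51 and 85 members and 2 markers by 179 and 296 nuclei just outside. Pde8b, Lin7a and Ano1, which the rule did not use, together summed to 1703 and 729.6 CPM in members with 3 markers, to 167 and 153 in nuclei with 2 and to 3356 and 3735 in members with all 6.

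Genes outside the rule followed the same nuclei. Being 2-fold or more above all other nuclei was common, at 22.3% of 3682 genes with 20 or more UMIs in the gastrocnemius members and 16.8% of 7406 in plantaris, and the members were chosen by linked genes, so these values describe the nuclei and are not tested. Of 30 genes listed as pericyte identity genes, 15 reached 20 UMIs in gastrocnemius and 15 of these were 2-fold or more higher, as were 16 of 17 in plantaris, with medians of 4.66 and 2.99 log2 beside 0.22 and 0.21 over all genes counted. The leading genes by the bound of the interval in both libraries included Il34, a ligand of the macrophage receptor CSF1R, at 1051 and 996 CPM in single-rule members and 5.21 and 3.26 in other nuclei. Vtn, which encodes the matrix protein vitronectin, was at 179.5 and 160.0 CPM against 0.859 and 0.610. Pde8b, a cAMP phosphodiesterase, was at 1244 and 1992 CPM against 7.19 and 8.36. The serotonin receptor gene Htr7, the regulator Rgs4, and Cpm, Gpr176, Rerg, Slc4a8 and Plxdc1 were further genes of this group. Lin7a, a scaffold of cell junctions, Slc35f1, Zfp804b and Zmat4 stood beside them, each lying between 6.60 and 7.37 log2 above other nuclei in gastrocnemius and between 5.89 and 6.47 in plantaris.

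**Figure D2:**
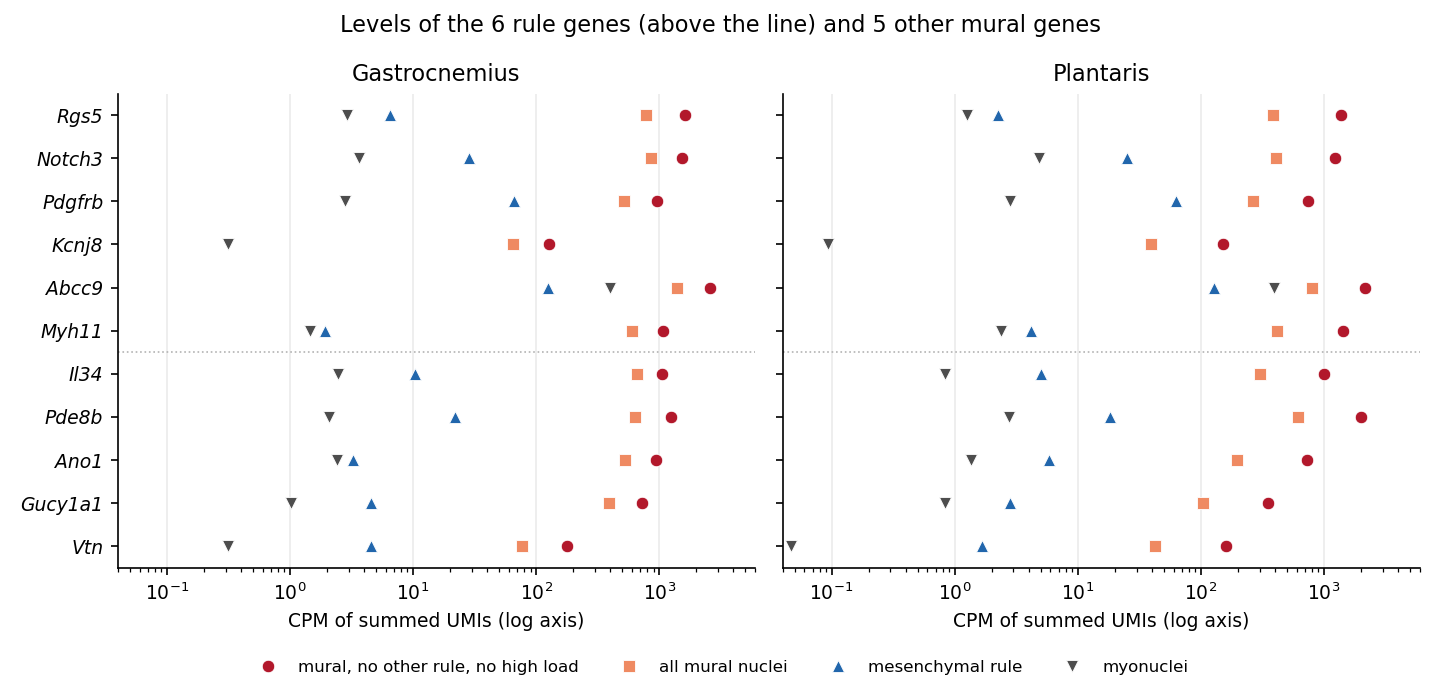
Level in CPM of summed UMIs (log axis) of the 6 rule genes, above the dotted line, and of 5 other genes in each library, in single-rule mural nuclei (red), all mural nuclei (orange), nuclei of the mesenchymal rule (blue) and myonuclei (grey); a level of 0, as for Kcnj8 in mesenchymal nuclei, is not drawn. Abcc9 is the only gene shown whose myonuclear level exceeds 100 CPM, at 394 and 393.

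Some genes of calcium entry and excitation were far above their levels in other nuclei, and others were not. Of the channel and calcium list, 10 of 19 genes counted over all gastrocnemius members were 2-fold or more higher, against 22.3% of all genes, and none was 2-fold or more lower, against 3.86%. In plantaris 11 of 25 were higher, against 16.8%, and none lower, against 0.635%. The list's medians were 1.38 and 0.79 log2. In single-rule members 10 of 16 and 9 of 16 were higher, against 35.8% and 28.7%, and 2 in each library were lower, against 10.7% and 10.1%. Cacna1c, the pore of the L-type calcium channel, was at 4123 CPM in single-rule gastrocnemius members and 3917 in plantaris, against 42.2 and 55.1 in other nuclei, and its subunit gene Cacnb2 at 1895 and 1707 against 12.3 and 17. Ano1, the calcium-activated chloride channel that depolarises mural cells, was at 938 and 725 against 3.87 and 2.91, and the T-type channel gene Cacna1h at 159.6 and 116 against 0.483 and 0.789. Kcnma1, the pore of the large-conductance calcium-activated potassium channel, went the other way, at 791 and 618 CPM in single-rule members and 3649 and 3158 in myonuclei.

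The vasoactive receptor and cGMP list had 10 of 13 counted genes 2-fold or more above other nuclei over all gastrocnemius members, against 22.3% of all genes. Over plantaris members 15 of 19 were higher, against 16.8%. None was 2-fold or more lower in either library, against 3.86% and 0.635%. In single-rule members 10 of 11 were higher in each library, against 35.8% and 28.7%. In each library 1 was lower, against 10.7% and 10.1%. Several of them belong to the relaxing arm of nitric oxide and cGMP. Gucy1a1, Gucy1a2 and Gucy1b1, the subunits of soluble guanylate cyclase, were at 725, 1576 and 266 CPM in single-rule gastrocnemius members and at 351, 1027 and 196 in plantaris, against 1.83, 32.4 and 1.72 in other gastrocnemius nuclei and 2.08, 35.0 and 2.51 in other plantaris nuclei. Prkg1, the cGMP-dependent kinase, was at 9204 and 7171 CPM against 385 and 672 in other nuclei. Mrvi1, a substrate of that kinase at the calcium store, was at 791 and 649 against 5.96 and 5.27. Of the phosphodiesterases, Pde3a was at 2893 and 2601 CPM against 51.6 and 72.8, and the cGMP-specific Pde5a at 226 and 213 against 9.56 and 12.3.

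Receptors for vasoactive signals were also detected. Levels are compared only within a gene, since the part of gene length in them was not tested. The endothelin receptor genes Ednra and Ednrb were at 352 and 153 CPM in single-rule gastrocnemius members and 204 and 342 in plantaris. The angiotensin receptor gene Agtr1a was at 253 and 191 CPM, and the adenosine receptor gene Adora2b at 146 and 93.4. Htr7, a serotonin receptor, was at 439 and 293 CPM against 1.56 and 0.861 in other nuclei. Npy1r, the receptor for neuropeptide Y, gave 12 and 18 UMIs over all members and 0.107 and 0.287 CPM in other nuclei. In all members Adra1a, an adrenergic receptor, was less than 2-fold above other nuclei in gastrocnemius, at 114 against 68.1 CPM. It was more than 2-fold above them in plantaris, at 62.2 against 24.8.

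Notch genes were uneven. The target Heyl was at 153 and 129 CPM in single-rule members against 2.79 and 7.07 in other nuclei, and the ligand Jag1 at 186 and 209 against 18.8 and 17.8. Rbpj, the DNA-binding partner of Notch, and Notch2 lay near the other nuclei, at 153 and 200.1 CPM and 93.1 and 84.5, against 201 and 259.6 and 74.1 and 82.9. Among transcription factors, Ebf1 was high in mural nuclei at 5732 and 6851 CPM, but it was also detected in 94.9% (93.1 to 96.3) and 96.5% (95.3 to 97.5) of mesenchymal nuclei. Of the basement membrane genes, the collagen IV chains Col4a1 and Col4a2 were at 632 and 605 CPM in single-rule gastrocnemius members and 920.2 and 747 in plantaris, and the collagen-binding integrin gene Itga1 at 1197 and 1423 against 13.7 and 17.9 in other nuclei.

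The smooth muscle side was set by Myh11, the smooth muscle myosin heavy chain. Differences between the sides describe nuclei that the Myh11 cut separated, with no test. Per library, 4.21% of 3682 genes were 2-fold or more higher and 5.78% lower on the smooth muscle side in gastrocnemius, and 3.04% and 3.02% of 7406 in plantaris. In both libraries at once, 30 of 3676 genes (0.816%) were higher, Myh11 itself among them, and 1 (0.0272%), the antisense RNA gene Nr6a1os, was lower. The use of strand in the counting is not stated, and whether reads of its partner Nr6a1 entered the count of Nr6a1os was not tested. Among single-rule members the shares in both libraries were 1.12% and 0.33% of 1516 genes, or 17 and 5, and the 5 lower genes, named after their values were seen, were C2cd2, Fmnl2, Tshz3, Zfyve9 and 1700025G04Rik. Of 30 contractile genes in the table, 5 of the 19 with 20 or more UMIs were 2-fold or more higher on the smooth muscle side in gastrocnemius and 10 of 25 in plantaris, none lower, with medians of 0.52 and 0.74 log2 beside -0.07 and 0.01 over all genes. In single-rule members the contractile medians were 0.49 and 0.16, and 3 of 14 genes (Flna, Itga8 and Pdlim3) and 1 of 17 (Acta2) were 2-fold or more higher, against 6.22% and 5.11% of all genes, and 0 and 0 were lower, against 8.95% and 3.98%.

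Acta2, the smooth muscle actin, gave 28 UMIs in 50 smooth muscle side nuclei and 4 in 109 pericyte side nuclei of gastrocnemius, and 68 in 108 and 26 in 161 nuclei of plantaris. The difference was 3.74 (2.23 to 5.71) log2 in gastrocnemius and 1.95 (1.28 to 2.67) in plantaris, and 3.84 (1.76 to 6.99) and 1.05 (0.08 to 2.13) in single-rule members. In steps of 0, 1, 2 and 3 or more Myh11 UMIs, Acta2 was at 7.78, 20.4, 58.7 and 315 CPM in gastrocnemius and at 25.4, 39.2, 89.3 and 134 in plantaris, so that both libraries were highest at 3 or more. On the smooth muscle side as a whole Acta2 was scarce: a UMI of it was found in 20% (10.0 to 33.7) and 26.9% (18.8 to 36.2) of smooth muscle side nuclei, against 0.113% (0.0414 to 0.246) and 0.343% (0.209 to 0.529) of myonuclei. Tagln (transgelin) and Myl9 (a regulatory light chain) gave 5 and 6 UMIs over all gastrocnemius members and 23 and 34 over plantaris members. Myl9 gave 4 UMIs on the smooth muscle side and 2 on the pericyte side in gastrocnemius, too few for a ratio, and 25 and 9 in plantaris, 2.04 (0.89 to 3.32) log2.

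Acta2 and Myl9 are textbook targets of serum response factor and its partner myocardin, which act through CArG boxes (CC, 6 bases of A or T, GG). The promoter windows of RefSeq (build GRCm38.p6, 300 bases) were searched for CArG boxes in which at most 1 of the 6 inner bases was G or C, a pattern that reads the same on both strands, and for TGGGAA, the core of the site of the Notch partner RBPJ, on both strands. Capitals mark the boxes, which start 84 and 34 bases before the RefSeq start of Acta2 (minus strand) and 161 and 99 bases before that of Myl9 (plus strand), and these stretches are shown because Acta2 was over 2-fold higher on the smooth muscle side in both libraries and Myl9 has a box with no departure from the pattern. In GRCm38.p6 the Acta2 stretches lie at chr19:34255438-34255467 and chr19:34255388-34255417, within the first exon of the GENCODE transcript Acta2-201, which starts further upstream. The Myl9 stretch lies at chr2:156775214-156775419, and ends directly before the first exon of the gene in the GENCODE M21 annotation.
Acta2 distal box: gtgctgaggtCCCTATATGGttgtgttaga
Acta2 proximal box: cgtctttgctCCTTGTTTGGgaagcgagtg
Myl9 upstream: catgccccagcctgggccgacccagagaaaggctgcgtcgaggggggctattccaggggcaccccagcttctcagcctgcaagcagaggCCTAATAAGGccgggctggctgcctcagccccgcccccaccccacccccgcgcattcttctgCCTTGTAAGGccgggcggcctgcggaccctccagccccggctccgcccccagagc
Such boxes were found in 6 of 26 contractile genes with a window, 23.1%, which were Acta2, Myl9, Pdlim3, Srf, Synm and Vcl, against 11.3% of 27025 genes. With no departure allowed, they were in 3 of 26, 11.5%, against 1.81% of all genes. TGGGAA was in 28.6% of 14 Notch genes and 60% of 20 identity genes with a window, against 28.3% of all genes. The letters describe these windows only. Of the other box-bearing genes, Vcl (vinculin) was at 0.02 (-0.79 to 0.81) and -0.01 (-0.50 to 0.49) log2 between the sides of single-rule members, and Pdlim3 at 2.04 (0.86 to 3.34) and -0.47 (-1.34 to 0.40). Srf gave 0 and 7 UMIs over all members.

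Apart from Acta2 and Itga8, the genes that differed most between the sides in both libraries were outside the contractile list. Kcnab1, a potassium channel beta subunit, gave 33 UMIs on the smooth muscle side and 3 on the pericyte side of single-rule gastrocnemius members and 59 and 1 in plantaris, or 4.21 (2.53 to 6.56) and 5.35 (2.82 to 10.68) log2. Over all members its difference was smaller, 1.93 (1.34 to 2.55) and 3.44 (2.86 to 4.08), and Kcnab1 was also at 224 CPM in gastrocnemius myonuclei. Olfr78, an olfactory-type receptor, gave 27 UMIs against 1 in gastrocnemius and 24 against 1 in plantaris, a difference of 5.69 (3.09 to 11.04) and 5.15 (2.53 to 10.51) log2. These UMIs came from 10 of 50 and 13 of 108 smooth muscle side nuclei, so most nuclei of that side held none. Itga8, an integrin chain, Dgkg, a diacylglycerol kinase, and Slc38a11, of an amino acid transporter family, were 3.44, 3.89 and 3.18 log2 higher in gastrocnemius and 2.74, 2.46 and 3.33 in plantaris. In single-rule plantaris members Itga8 gave 11 UMIs on the smooth muscle side and 0 on the other, and Dgkg 30 and 4. When nuclei were thinned to 1000 UMIs, the ratios of Itga8 and Dgkg in plantaris were -0.57 (-6.19 to 2.76) and -0.89 (-6.46 to 2.27), so neither direction was shown there at that depth. Rnf152, a ubiquitin ligase, and Kank1 were 3.1 and 2.16 log2 higher in gastrocnemius and 3.07 and 1.60 in plantaris. Dgkb, a second kinase of that family, and Cacnb2 differed less, by 1.57 (1.19 to 1.96) and 1.67 (1.35 to 2.0) and by 1.11 (0.84 to 1.39) and 1.17 (0.94 to 1.39). In single-rule members Cacnb2 was below 2-fold, at 0.84 (0.49 to 1.18) and 0.27 (-0.04 to 0.58). The same ranking over single-rule members put Kcnab1, Kank1, Rcan2 (a calcineurin regulator), Ppm1e, Dgkb, Stk38l, Ppp1r12a (the targeting subunit of myosin phosphatase), Mertk, Flna (filamin A) and Sox5 first. Of these, Rcan2 differed by 1.88 (1.34 to 2.43) and 0.97 (0.41 to 1.56) and Stk38l, a protein kinase, by 2.0 (1.03 to 3.06) and 1.39 (0.30 to 2.63). Tshz2, a zinc finger factor, was the one gene ranked on the lower side, at -0.84 (-1.28 to -0.43) and -0.56 (-0.85 to -0.27).

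Several mural genes lay close to 0 between the sides of single-rule members. Rgs5 differed by 0.12 (-0.26 to 0.50) and -0.09 (-0.42 to 0.25) log2, Pdgfrb by 0.08 (-0.43 to 0.58) and 0.12 (-0.34 to 0.59), Cacna1c by -0.09 (-0.34 to 0.15) and 0.07 (-0.13 to 0.27) and Cald1, a thin-filament protein, by 0.08 (-0.29 to 0.44) and 0.07 (-0.20 to 0.34). Each of these 8 intervals spans 0 and excludes a 2-fold difference. Il34 pointed opposite ways in the libraries, at -0.58 (-1.11 to -0.07) in gastrocnemius and 0.43 (0.02 to 0.85) in plantaris, and the difference between the libraries was not tested. At the lower end, Bmper, an extracellular regulator of BMP signalling, Pde10a, the long non-coding RNA Meg3 and Arhgef3 had negative ratios on the smooth muscle side of all members, -1.20, -0.44, -0.56 and -0.99 log2 in gastrocnemius and -0.42, -0.41, -0.19 and -0.37 in plantaris. Bmper was at 1410.1 and 698 CPM and Meg3 at 2081 and 1487 in mesenchymal nuclei, and the part of mesenchymal RNA was not tested. In single-rule members the ratios of Bmper and Pde10a turned positive in plantaris, at 0.16 and 0.75, and that of Arhgef3 in gastrocnemius, at 2.07 from 5 and 2 UMIs. Meg3 was at -0.31 (-0.92 to 0.27) and -0.35 (-0.74 to 0.05), with both intervals including 0.

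**Figure D3:**
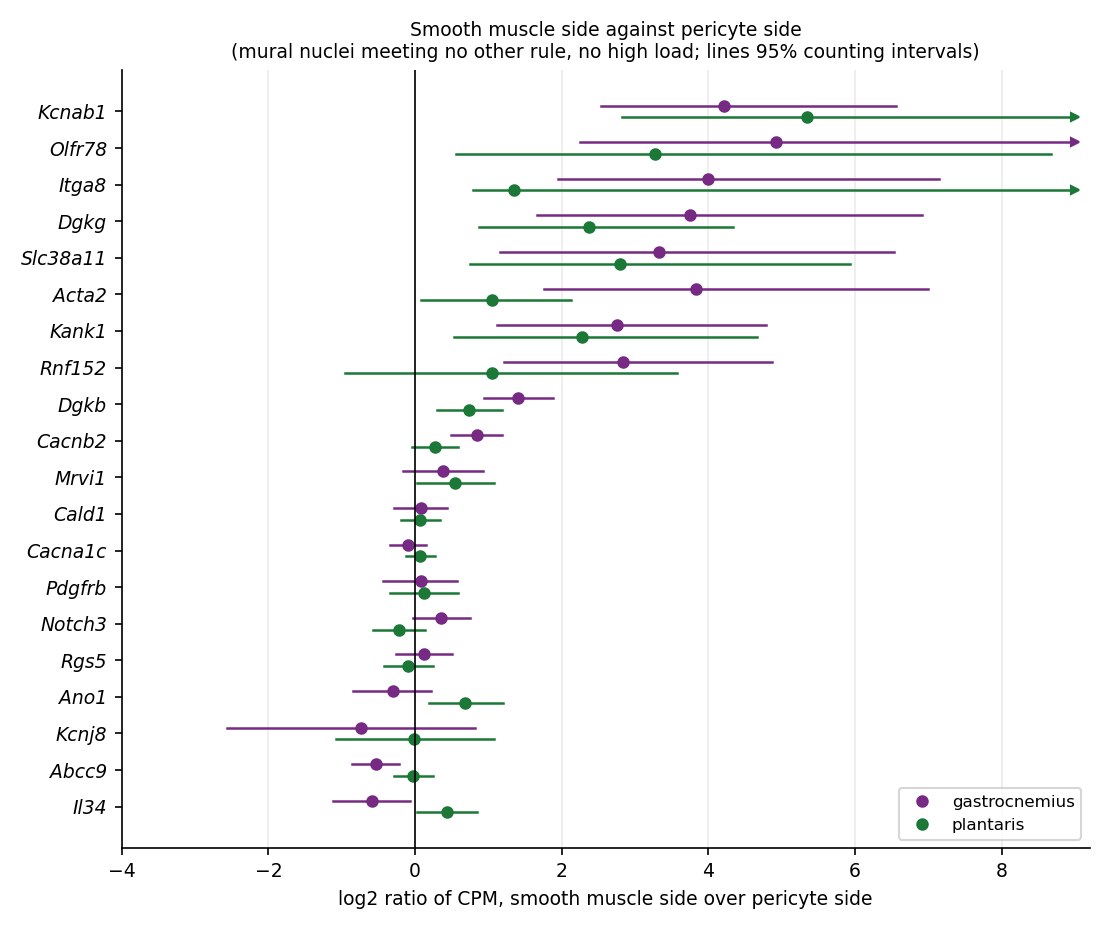
The log2 ratio of CPM of the smooth muscle side over the pericyte side in single-rule mural nuclei of gastrocnemius (purple) and plantaris (green), with 95% counting intervals as lines and arrows where the interval runs beyond the axis. Kcnab1 lies at 4.21 and 5.35, while Rgs5, Pdgfrb, Cald1 and Cacna1c lie between -0.09 and 0.12 in both libraries. Pdgfrb, Notch3, Rgs5, Kcnj8 and Abcc9 are rule genes, so their ratios are a description.

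The leading genes sat together in few nuclei. Of the first 6 named genes of the smooth muscle side (Olfr78, Itga8, Slc38a11, Dgkg, Kcnab1 and Acta2), 3 or more were detected in 13 of the 234 single-rule members, 6 in gastrocnemius and 7 in plantaris, and 12 of these 13 lay on the smooth muscle side, where the 6 genes were ranked for being higher. The other 86 of the 98 single-rule smooth muscle side nuclei held fewer than 3, and 25 of 35 in gastrocnemius and 40 of 63 in plantaris held none. The 13 nuclei were deeper, with median UMIs of 2568.5 and 3153 against 1195 and 1481.5 in the other single-rule members. They were picked after the values were seen, so their other genes are given as a description. Myocd, which encodes myocardin, gave 8 of its 10 UMIs in gastrocnemius and 12 of its 14 in plantaris in these nuclei. Cdh6 (a cadherin) gave 7 of 7 and 11 of 11 there, Ryr2 (a calcium release channel) 7 of 7 and 6 of 7, and Trpc6 8 of 11 and 7 of 9. Not all of the 6 gastrocnemius and 7 plantaris nuclei held them. Myocd had a UMI in 3 and 5 of these nuclei, Cdh6 in 2 and 3, Ryr2 in 2 and 4 and Trpc6 in 5 and 4. In the same nuclei Rgs5 and Abcc9, which are rule genes, were low. Rgs5 was at 364 and 346 CPM against 1777 and 1492 in the other single-rule members. Abcc9 was at 121 and 562 CPM against 2883 and 2349. Kcnj8, also a rule gene, gave 0 and 1 UMIs against 19 and 33, too few to call it lower. Its CPM intervals overlapped, at 0 to 224 against 85.4 to 222 in gastrocnemius. In plantaris they were 1.09 to 241 against 113 to 230. Outside the rule, 17 more nuclei held 3 or more of the 6 genes, 13 of them with exactly 2 rule markers and 13 with Myh11. Over the whole side Rgs5 differed from the pericyte side by 0.12 and -0.09 log2 and Abcc9 by -0.54 (-0.86 to -0.21) and -0.02 (-0.29 to 0.24).

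Between the muscles, all members gave 946 genes (11.6% of 8152) 2-fold or more higher in plantaris and 313 (3.84%) lower. Single-rule members gave 304 (8.66% of 3510) and 123 (3.5%). The mural identity list differed between these sets. Over all members 8 of its 20 genes were 2-fold or more lower in plantaris and 1 higher, with a median of -0.83 log2 beside 0.13 over all genes. In single-rule members 2 of 17, Gucy1a1 and the transcription factor gene Tbx2, were lower and none higher, with a median of -0.27 beside 0.03. Cacna1c is an example, at -0.83 (-0.95 to -0.72) over all members and -0.07 (-0.22 to 0.08) in single-rule ones. Less RNA per mural cell and more RNA of other cells in the same droplets cannot be told apart in the sums over all members.

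A subunit gene of soluble guanylate cyclase was lower in plantaris in both sets. Gucy1a1 went from 388 to 104 CPM over all members and from 725 to 351 in single-rule members, differences of -1.90 (-2.24 to -1.57) and -1.05 (-1.48 to -0.61) log2. Gucy1a2 differed by -0.62 (-0.89 to -0.35) in single-rule members and Gucy1b1 by -0.44 (-1.09 to 0.21), whose interval includes 0. Downstream, Prkg1 differed by -0.36 (-0.46 to -0.26), Mrvi1 by -0.29 (-0.65 to 0.08) and Pde5a by -0.08 (-0.75 to 0.59). Prkg2, the second cGMP-dependent kinase, was at 199 CPM in single-rule gastrocnemius members and 62.2 in plantaris, -1.68 (-2.71 to -0.72) log2. In the other nuclei Gucy1a1 was at 1.83 and 2.08 CPM.

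The endothelin receptors went in opposite directions. In single-rule members Ednra went from 352 CPM in gastrocnemius to 204 in plantaris, a difference of -0.79 (-1.39 to -0.19). Ednrb was at 153 and 342 CPM, a difference of 1.16 (0.47 to 1.90), and the intervals of the 2 genes lay on opposite sides of 0. Over all members Ednra differed by -1.72 (-2.21 to -1.24) and Ednrb by 0.55 (-0.03 to 1.17). Of the vasoactive receptor and cGMP list, 2 of 14 genes were 2-fold or more lower and 1 higher in single-rule plantaris members, against 3.5% and 8.66% of all genes, with a median of -0.44 log2 beside 0.03. The lower genes were Gucy1a1 and Adra1a and the higher one was Ednrb. Over all members 10 of 23 were lower and 3 higher, against 3.84% and 11.6%, with a median of -0.88 beside 0.13. Adra1a was at 126 and 44.5 CPM, a difference of -1.51 (-2.77 to -0.33), and it was also lower in all other nuclei, at 68.1 and 24.8. Several signalling genes were also lower in plantaris in both sets. Gna14, an alpha subunit of the Gq family, was at 406 and 169 CPM, a difference of -1.26 (-1.89 to -0.66), and Stac, an adaptor of L-type calcium channels, at 266 and 93.4, a difference of -1.51 (-2.35 to -0.71). Mtmr7 (a lipid phosphatase), Afap1l2, Rnf144a (a ubiquitin ligase) and Amph (amphiphysin) differed by -1.72, -1.40, -1.13 and -1.05 log2.

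**Figure D4:**
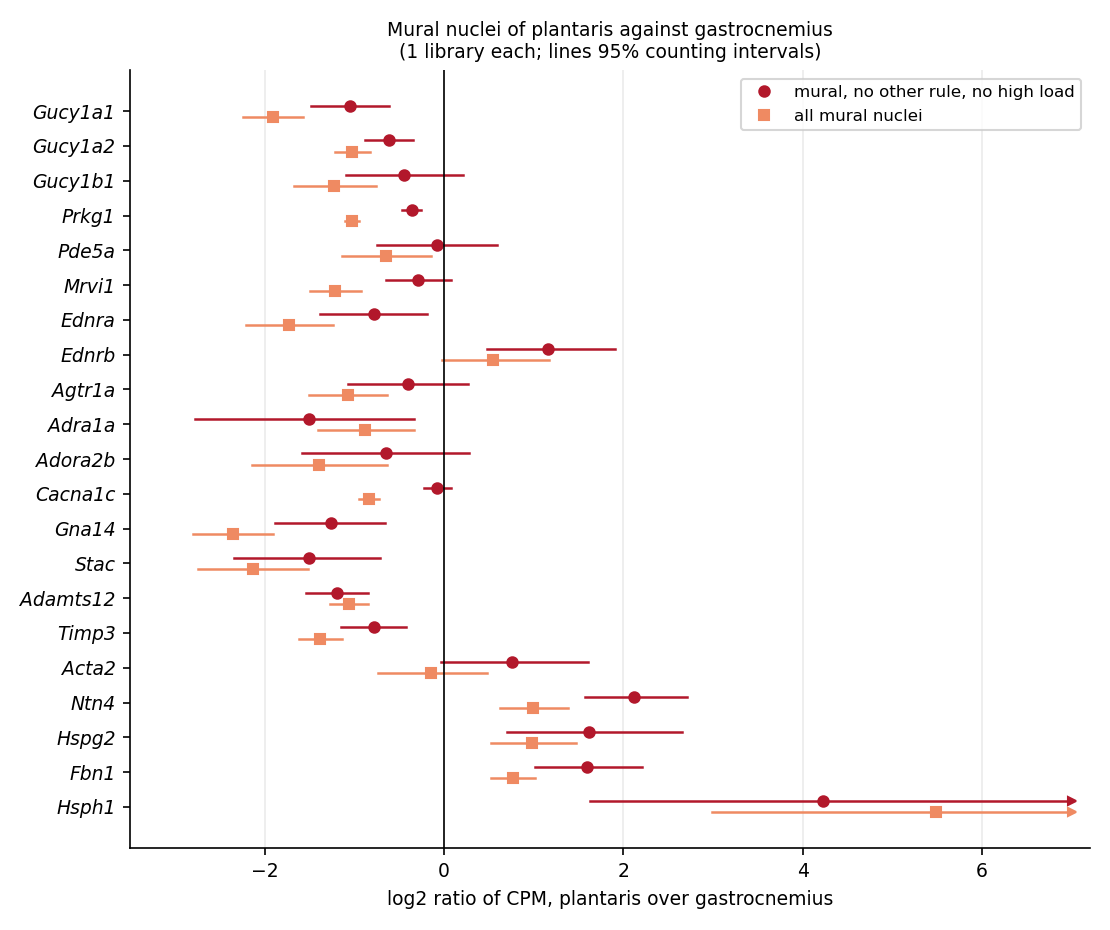
The log2 ratio of CPM of plantaris over gastrocnemius for 21 genes in single-rule (red circles) and all (orange squares) mural nuclei, with 95% counting intervals as lines and arrows where they run beyond the axis. Gucy1a1 lies below 0 in both sets, Ednra and Ednrb lie on opposite sides of 0, and genes such as Cacna1c move from -0.83 to -0.07 in the single-rule members.

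Few contractile genes passed 2-fold between the muscles in single-rule members. Of 22 contractile genes counted in single-rule members, 2 were 2-fold or more higher in plantaris and 1 lower, shares close to the 8.66% and 3.5% of all genes, with a median of 0.18 log2 beside 0.03. The higher genes were Myl9 and Pdlim7 and the lower one was Itga8. These values pool both sides, and the smooth muscle side was 33.3% of single-rule members in gastrocnemius and 48.8% in plantaris. Within that side 0 of 19 genes were higher and 2 lower, against 9.66% and 5.08% of all genes, with a median of -0.24 beside 0.02. Within the pericyte side 1 of 13 was higher and 0 lower, against 7.44% and 6.07%, with a median of 0.04 beside -0.04. Over all members 1 of 26 was higher and 5 were lower, against 11.6% and 3.84%, with a median of -0.15 beside 0.13. In single-rule members of both sides together, Acta2 was at 126 and 213 CPM, a difference of 0.76 (-0.04 to 1.61). Myh11, a rule gene, was at 1077 and 1436, a difference of 0.41 (0.14 to 0.70). The part of the mix of sides in these differences was not tested. Itga8 was at 139.6 and 48.9, a difference of -1.51 (-2.71 to -0.40).

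Matrix genes went both ways. Of 20 basement membrane and adhesion genes counted in single-rule members, 3 were 2-fold or more higher in plantaris and 3 lower, and of 11 interstitial matrix genes 3 were higher and 2 lower, against 8.66% and 3.5% of all genes. The medians were -0.05 and 0.11 log2. In single-rule members Hspg2 (perlecan), Col15a1 and Lama4, all of basement membranes, were 1.62 (0.70 to 2.65), 1.17 (0.41 to 1.99) and 1.03 (0.19 to 1.95) log2 higher in plantaris. The lower genes of that list were the collagen IV chain genes Col4a3 and Col4a5, at -1.80 (-3.11 to -0.62) and -1.41 (-2.77 to -0.15), and Itga8, given above. Of the interstitial genes, the collagen chain genes Col1a2 and Col5a1 differed by 1.23 (0.18 to 2.41) and 1.67 (0.08 to 3.68) and Dcn (decorin) by -1.50 (-2.85 to -0.25), while Fbn1 (fibrillin-1) went from 199 to 600.2 CPM, a difference of 1.59 (1.01 to 2.21). Ntn4, the laminin-related netrin-4, went from 213 to 925, a difference of 2.12 (1.58 to 2.70), with a UMI in 24 of 105 and 78 of 129 nuclei. Pcsk6, a proprotein convertase, went from 26.6 to 240.1, a difference of 3.17 (1.73 to 5.10), with 13 of its 54 plantaris UMIs in 1 nucleus. Fbn1, Hspg2, Col15a1 and Pcsk6 were at 1276, 291, 530.4 and 577 CPM in plantaris mesenchymal nuclei, and the part of free mesenchymal RNA in these differences was not tested. Adamts12 (a metalloproteinase) and Timp3 (an inhibitor of metalloproteinases) went the other way, from 1217 to 533, a difference of -1.19 (-1.53 to -0.85) and from 918 to 533 CPM, a difference of -0.78 (-1.15 to -0.42).

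Several early response and heat shock genes were higher in plantaris, although most of the list could not be counted. Of the 27 listed genes, the 10 with 20 or more UMIs over all members included 7 that were 2-fold or more higher, against 11.6% of all genes, and none lower, against 3.84%. Their median was 2.02 log2 beside 0.13, and the higher genes included Klf2, Klf4, Dusp1 and Fosl2. The limit of 20 UMIs is on the sum of both libraries, and plantaris members held 1367069 UMIs against 419867 in gastrocnemius. Scarce genes such as Hsph1 and Nr4a3 passed it through their plantaris UMIs, so these counts and the median are a description only. In single-rule members only Nr4a1 and Hsph1 reached 20 UMIs, and both were 2-fold or more higher, at 1.09 (0.08 to 2.22) and 4.23 (1.63 to 9.58), against 8.66% of all genes. Hsph1 passed the limit there through its plantaris UMIs as well. Over all members Hsph1, a heat shock protein, gave 1 UMI in gastrocnemius and 146 in plantaris, a difference of 5.49 (2.99 to 10.80), and Nr4a3, an orphan nuclear receptor, 3 and 91, a difference of 3.22 (1.63 to 5.52). The other nuclei also differed: Hsph1 was at 10.6 and 66.9 CPM and Nr4a3 at 11.3 and 103 in other nuclei, and 11 of 25 genes of the list were 2-fold or more higher in plantaris there, against 9.84% of 15034 genes, and 0 lower, against 1.98%. Another chaperone gene, Hspa4l, was at 33.2 and 187 CPM in single-rule members, a difference of 2.49 (1.15 to 4.18).

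The remaining lists are read against the 8.66% of all genes that were 2-fold or more higher and the 3.5% that were lower in single-rule plantaris members. Of 20 channel and calcium genes 1 (the calcium store channel gene Itpr2) was higher and none lower, and the median was -0.11 log2. In the Notch list 1 of 7 genes (the coactivator gene Maml1) was higher, and among PDGF, TGF-beta and angiopoietin genes 1 of 12 (Smad3, a mediator of TGF-beta signals), with none lower in either and medians of 0.17 and -0.04. Of 6 limb position factors 1 (Meis2) was higher and 1 (Tbx2) lower, with a median of -0.46. Of 2 RGS genes counted, 1 (Rgs6) was higher. Of 12 metabolic and clock genes 3 were higher (Lpl, Ppara and Npas2) and 1 (Pdk4, a kinase that restrains pyruvate oxidation) lower, with a median of 0.02. Within the metabolic list Ppara, a nuclear receptor of fatty acid use, gave 1 UMI in single-rule gastrocnemius members and 26 in plantaris, a difference of 4.12 (1.51 to 9.48). Ppara was at 115 and 416 CPM in myonuclei and at 109.9 and 370.1 in all nuclei outside the rule. The clock gene Npas2 was at 53.2 and 191 CPM, 1.85 (0.74 to 3.15) log2, and at 18.6 and 44.1 in other nuclei.

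Some of the largest ratios came from 1 nucleus or from members outside the single-rule set. Lrfn5 gave 18 UMIs in gastrocnemius, 17 of them in 1 nucleus, and Tenm2 36, of which 35 were in 1 nucleus. In single-rule members Hs6st3 gave 28 UMIs in gastrocnemius, 17 in 1 nucleus, and 0 in plantaris, which at a floor of 3 counts in plantaris is at least 14-fold lower. Hs6st2 was alike, with 22 of 27 UMIs in 1 nucleus. Of the 10 genes highest in plantaris over all members, Shisa6, Cdr2, Prtg, Fam111a, Maged1 and Pgd had no UMI in gastrocnemius, which at a floor of 3 counts is between at least 2.66-fold and at least 3.58-fold higher. The single-rule plantaris members held at most 6 UMIs of any of them. The other 4 named were Cadm3, Kcp, Dpysl3 and Abi3bp, of which Abi3bp was at 645 and 745 CPM in mesenchymal nuclei and at 39.9 and 182 in single-rule members. Slc1a3, a glutamate transporter ranked among the lower genes over all members, had 17 of its 24 gastrocnemius UMIs in 1 nucleus. Of the 10 genes ranked highest in single-rule members, Lsamp, Dpysl3, Fbn1, Pcsk6 and Abi3bp were at 201 CPM or more in plantaris mesenchymal nuclei, and 20 of the 33 plantaris UMIs of Kirrel3 lay in 1 nucleus. Fam107b and Parp9, with 11 and 11 UMIs in gastrocnemius and 69 and 59 in plantaris, had no more than 6 of them in 1 nucleus. At the lower end, Mdga2, St6gal1 (a sialyltransferase), Mamdc2, Slc16a12 (a monocarboxylate transporter family member) and Ggta1 (a galactosyltransferase) had log2 ratios of -1.84, -1.87, -2.35, -1.66 and -1.51.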

How the data were processed

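Single-nucleus RNA was counted as UMIs per gene and nucleus by the authors with Cell Ranger 6.0.1 on mm10, per the submitters' processing notes, and the deposited counts were used as they are; the chemistry was the 10x Chromium 3' kit, per the labels' protocols. On gene annotation, the counting of introns and the filter that left 16530 nuclei and 32285 genes, the sources used here say nothing. The members and gene lists were chosen with earlier results of these data known. UMIs were summed over members per library and divided by their total (counts per 1000000 UMIs, CPM). Log2 ratios carry exact conditional binomial intervals, shares exact Clopper-Pearson intervals and counts exact Poisson intervals, all at 95% and for counting error only, since PCR and nuclei are not replicates. A gene was counted as changed at 2-fold or more with 20 or more UMIs over both sides, and ratios against a count of 0 use a floor of 3 counts. For members against other nuclei, the 20 UMIs had to be in the members. No test was made, as each muscle has 1 library. Named genes were the 10 highest and 10 lowest by the bound of the interval nearest to 0 (the 20 highest against other nuclei, and the smaller bound of the 2 libraries between sides), leaving out rule genes, gene models without a symbol and genes under 2 times the level of other nuclei in both libraries; listed genes were named beside them. Some genes that this rule picks are not reported here. Alternatives were another marker minimum, leaving out Abcc9, members meeting another rule or of high myonuclear load, filtered nuclei, thinning to 1000 UMIs, other Myh11 limits, other scalings and other UMI minimums. The ratio and its interval were checked on simulated independent counts, for plantaris over gastrocnemius in all members only. UMIs that cluster in 1 nucleus were not simulated, so the intervals were not checked against such clustering. Python 3.11.15, numpy 2.4.6, scipy 1.17.1, pandas 2.3.3, scanpy 1.11.5 and matplotlib 3.10.9 were used.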

Additional observations from a re-analysis of the deposited data

Results flagged for a closer look

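Col4a3, a basement membrane collagen chain, differed in direction between the libraries: over all members it was -2.18 (-4.55 to -0.48) log2 on the smooth muscle side against the pericyte side in gastrocnemius and 1.45 (0.63 to 2.32) in plantaris, with intervals on opposite sides of 0. The difference between the libraries was not tested. In single-rule members Col4a3 gave 1 and 20 UMIs on the 2 sides in gastrocnemius and 6 and 3 in plantaris.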

How the results depend on the processing

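No paired analysis was possible because each muscle is 1 library. No library could be left out, since no replicate exists. Ratios of named genes kept their direction under median-ratio scaling, and the count and share results were within the limits set. The same held under filtered nuclei and the removal of shared barcodes. These latter alternatives left out 0 members, so ratios between the sides and between the muscles could not change under them. Given here by alternative are the shares of nuclei, counts of genes past 2-fold and main list medians that moved, and the log2 ratios of genes and other list medians that changed sign. Besides these, 119 gene values moved without a change of sign and 374 stayed within the limit set, and other list medians that moved without a change of sign are not printed. The cause was not tested except where the alternative itself uses fewer nuclei, UMIs or genes. With 4 of 6 markers, the changed values were the mural share 1.46% (gastrocnemius) and 2.01% (plantaris), the smooth muscle share 47.3% (plantaris), lower genes 148 (plantaris), higher genes in both libraries 8, lower genes in both libraries 3, Meg3 0.0806 (plantaris). With 3 of 5 markers and Abcc9 left out, the changed values were the mural share 1.55% (gastrocnemius) and 2.09% (plantaris), the smooth muscle share 40.4% (gastrocnemius) and 47.1% (plantaris), lower genes 141 (plantaris), higher genes in both libraries 14, lower genes in both libraries 3, Meg3 0.0617 (plantaris). Without members meeting another rule, the changed values were the mural share 1.75% (gastrocnemius) and 1.92% (plantaris), lower genes in both libraries 10, plantaris higher genes 441, plantaris lower genes 190, Shisa6 -0.44 (muscles), Kcp -0.44 (muscles), Bmper 0.32 (plantaris), Pde10a 0.60 (plantaris), Meg3 0.20 (plantaris), Arhgef3 1.10 (gastrocnemius). The negative signs of Shisa6 and Kcp come from a gastrocnemius count of 0 set to the floor of 3 counts. Their intervals run from -1.46 with no upper bound, so no reversal was shown. Without members of high load, the changed values were the mural share 1.71% (gastrocnemius) and 2.23% (plantaris), higher genes in both libraries 19, lower genes in both libraries 3, Arhgef3 0.000261 (gastrocnemius). After thinning to 1000 UMIs, the changed values were the mural share 1.22% (gastrocnemius) and 1.32% (plantaris), the smooth muscle share 20.8% (gastrocnemius) and 27.1% (plantaris), smooth muscle side higher genes 41 (gastrocnemius) and 51 (plantaris), lower genes 90 (gastrocnemius) and 124 (plantaris), higher genes in both libraries 2, lower genes in both libraries 8, plantaris higher genes 125, plantaris lower genes 86, Itga8 -0.57 (plantaris), Dgkg -0.89 (plantaris), Meg3 0.0165 (gastrocnemius), Arhgef3 1.35 (gastrocnemius), Arhgef3 0.16 (plantaris), the contractile median 0.23 (sides, gastrocnemius), the contractile median 0.20 (sides, plantaris). With a limit of 1 Myh11 UMI, the changed values were the smooth muscle share 63.5% (gastrocnemius) and 73.2% (plantaris), smooth muscle side higher genes 363 (plantaris), lower genes 126 (gastrocnemius), lower genes in both libraries 0, Bmper 0.25 (plantaris), Pde10a 0.30 (gastrocnemius), Arhgef3 1.70 (gastrocnemius). With a limit of 3, the changed values were the smooth muscle share 16.4% (gastrocnemius) and 25.7% (plantaris), lower genes 438 (gastrocnemius), lower genes in both libraries 7. With the mean of each nucleus's CPM, the changed values were smooth muscle side higher genes 256 (gastrocnemius) and 478 (plantaris), lower genes 355 (gastrocnemius) and 571 (plantaris), lower genes in both libraries 13, Pde10a 0.0543 (gastrocnemius). With a minimum of 10 UMIs, the changed values were smooth muscle side higher genes 377 (gastrocnemius) and 530 (plantaris), lower genes 571 (gastrocnemius) and 560 (plantaris), higher genes in both libraries 53, lower genes in both libraries 14, plantaris lower genes 551. With 50 UMIs, the changed values were smooth muscle side higher genes 39 (gastrocnemius) and 72 (plantaris), lower genes 37 (gastrocnemius) and 33 (plantaris), higher genes in both libraries 11, lower genes in both libraries 0, plantaris higher genes 368, plantaris lower genes 146. In single-rule members, the changed values were the mural share 1.42% (gastrocnemius) and 1.41% (plantaris), the smooth muscle share 48.8% (plantaris), smooth muscle side higher genes 98 (gastrocnemius) and 122 (plantaris), lower genes 141 (gastrocnemius) and 95 (plantaris), higher genes in both libraries 17, lower genes in both libraries 5, plantaris higher genes 304, plantaris lower genes 123, Bmper 0.16 (plantaris), Pde10a 0.75 (plantaris), Arhgef3 2.07 (gastrocnemius), the PDGF, TGF-beta and angiopoietin median -0.0394 (muscles), the mural identity median -0.0400 (sides, plantaris), the contractile median 0.16 (sides, plantaris).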
